A study of Mus musculus with 7 samples.

Results

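Per3 and 9 other genes of the circadian clock (Per1, Per2, Cry1, Cry2, Arntl, Clock, Nr1d1, Nr1d2 and Dbp) were examined in primary mouse embryonic fibroblasts (MEFs) with and without a 4.3 Mb deletion on mouse chromosome 4. The 10 genes were chosen by name and matched by Ensembl identifier, and all 10 are among the 15531 genes tested in the combined comparison of the genotypes. Per3 lies inside the deletion, and the other 9 lie elsewhere in the genome. RNA was sequenced from 7 lines. The labels and the supplementary methods of the study give crosses of Df/Dp male chimeras with C57BL/6J mice without setting the controls apart, whereas its main text names F1 +129/+Bl6 crosses as controls. A Df/Dp male would pass on Df or Dp and not an intact 129S5SvEvBrd copy, which goes with separate crosses for the controls. Effects of genotype and of cross then cannot be told apart, and the labels give no litter. In the 4 Df/+Bl6 lines, the chromosome from 129S5SvEvBrd carries the deletion and the C57BL/6J homologue is intact. The 3 control lines, +129/+Bl6, carry intact copies from the same strains. Lines of both genotypes were made from the bodies of embryos at embryonic day 13.5, without the head, kept in medium with fetal bovine serum and harvested at passage 4, 10 hours after reaching confluency. The sources used here give no time of day and no step that synchronizes the cultures. Beyond the loss of the deleted Per3 copy, a change in level and a change in the phase of a rhythm therefore cannot be told apart.

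The circadian clock of mammalian cells is a feedback loop of transcription that fibroblasts also run in culture. The activators CLOCK and BMAL1, the product of Arntl, bind E-boxes in the promoters of the Per and Cry genes. The PER and CRY proteins return to the nucleus and repress their own activators, while the nuclear receptors REV-ERB alpha and beta, encoded by Nr1d1 and Nr1d2, repress Arntl. Dbp is an output of the same E-box control, and its product is an activator that binds D-boxes, also found in Per promoters. Serum, glucocorticoids and cAMP induce Per1 rapidly in cultured fibroblasts.

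The values are the authors' mean normalized counts of each genotype in 3 deposited tables. The combined table is made from reads of both alleles, and the allelic tables from reads assigned to the 129S5SvEvBrd allele (129S5 allele) or to the C57BL/6J allele. Each table holds the genes past an FDR of 0.05 in DESeq, and such genes are called listed here. The tables hold no value per line, so sequencing depth by line is not known, and neither an SD nor the overlap between lines can be given. Differences are the log2 ratio of the Df/+Bl6 mean over the +129/+Bl6 mean, computed here without a pseudocount, so that negative values mean lower expression with the deletion. The tables were normalized separately, and levels are not compared between them.

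Of the 10 clock genes, 3 were listed in the combined table and all 3 were lower in Df/+Bl6 MEFs. These were the period genes Per3 and Per1 and the output gene Dbp. The share of all tested genes listed in either direction was 8.67% (1346 genes), with 3.54% lower (550 genes) and 5.13% higher (796 genes). Among the 9 clock genes outside the deletion, 2 were listed and lower. Counting listed genes with a fall of at least 1.5-fold, 2.97% of the tested genes, the count of clock genes stayed at 3. With a fall of at least 2-fold, 1.11% of the tested genes were listed, and of the clock genes Per3 alone. Because the genes were chosen with earlier results of these data known, no test was applied to these counts.

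Per3 (ENSMUSG00000028957) encodes a period protein of the repressing limb and lies at chr4:150997018-151044707 of GRCm38.p6, on the minus strand. In the combined table its mean was 460.8 normalized counts in Df/+Bl6 and 1300.3 in +129/+Bl6. The Df/+Bl6 mean was thus 35.4% of the control mean, a log2 difference of -1.50 or 2.82-fold lower. Per3 ranked 62 among the 550 genes that were lower, by the size of the difference. Uts2, a gene on the opposite strand, overlaps Per3 and is not in the list of tested genes.

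In the table of the 129S5 allele, which is the deleted copy in Df/+Bl6 MEFs, Per3 had a mean of 0.690 in Df/+Bl6 and 69.5 in +129/+Bl6. What was left in Df/+Bl6 was 0.994% of the control mean, a log2 difference of -6.65. This measurement bears on the genotype labels, since reads of the deleted allele were nearly absent in the lines said to lack it. The size of the ratio rests on a Df/+Bl6 mean under 1 normalized count, and with a pseudocount of 10 the log2 difference became -2.89. Per3 was not listed in the table of the C57BL/6J allele, so no level of its intact copy can be given, and absence from that table does not show that the copy was expressed alike in both genotypes.

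Per1 (ENSMUSG00000020893) encodes a period protein whose transcription responds rapidly to serum and hormone signals, and lies at chr11:69095108-69109965 (GRCm38.p6, plus strand). Its mean in the combined table was 2980.0 normalized counts in Df/+Bl6 and 5187 in +129/+Bl6. The log2 difference was -0.80, or 1.74-fold lower, close to the median of the listed genes that were lower (-0.81). Neither allelic table listed Per1. The third period gene, Per2, was tested and was not listed in any of the 3 tables.

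Dbp (ENSMUSG00000059824) encodes a PAR bZIP activator of clock output and lies at chr7:45705100-45710203 (GRCm38.p6, plus strand). It had a mean of 771 normalized counts in Df/+Bl6 and 1436 in +129/+Bl6 in the combined table, a log2 difference of -0.90 or 1.86-fold lower. Dbp was also listed in the table of the C57BL/6J allele, with means of 125.4 in Df/+Bl6 and 236.8 in +129/+Bl6 and a log2 difference of -0.92. It was not listed for the 129S5 allele, and whether the alleles of Dbp differ was not tested. The allelic tables draw on the same lines as the combined one and are no separate evidence. Sphk2, on the opposite strand, overlaps Dbp and was tested but not listed. The libraries were stranded, but the sources used here do not state whether the counting used the strand.

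**Figure D1:**
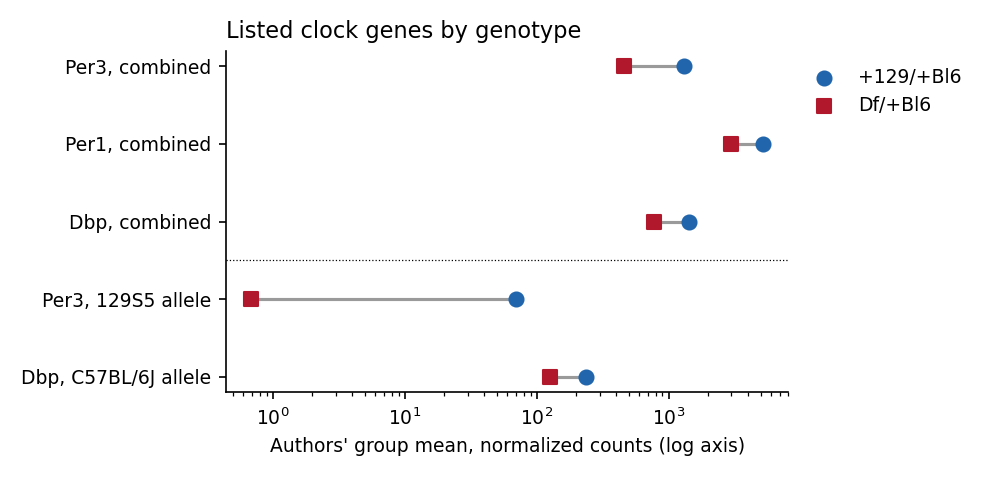
Authors' mean normalized counts of the listed clock genes in Df/+Bl6 (squares) and +129/+Bl6 (circles), on a log axis, with a line joining the means of each gene and the allelic tables under the dotted line. Df/+Bl6 is the lower mean in each row, from 1300.3 to 460.8 for Per3 and from 69.5 to 0.690 for its 129S5 allele.

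Per length of the longest annotated transcript, the level in +129/+Bl6 was highest for Per1, with 1111 normalized counts per kb, followed by Dbp with 803 and Per3 with 217. In Df/+Bl6 the order was the same, with levels of 638 for Per1, 431 for Dbp and 76.8 for Per3. The spread between lines is not known, so it cannot be said whether neighbours in this order differ beyond it.

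The remaining members were tested and were not listed in any table. They are the activators Clock and Arntl, the cryptochromes Cry1 and Cry2, the REV-ERB genes Nr1d1 and Nr1d2, and Per2. Of the 3 period genes 2 were thus listed, Per3 of the deletion among them, and the output gene Dbp was listed. Of the 2 activators, 2 cryptochromes and 2 REV-ERB genes 0 were listed. With 8.67% of all tested genes listed, classes this small cannot be compared with one another. The tables hold no values for the 7 unlisted clock genes, and a gene that misses the threshold is not shown to be unchanged.

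Per3 was then compared with the other genes of the deletion, taken as those between Rere and Ski, since the loss of 1 of 2 equal copies gives a log2 difference of -1. The study bounds the deletion by markers and not by these genes, so a tested gene near an end of the interval may lie outside it. Rer1 and Morn1, the last tested genes before Ski, were listed in no table. Of 42 tested genes there, 27 were listed in the combined table and all 27 were lower in Df/+Bl6, with a median difference of -1.02 and a range from -2.79 to -0.66. Per3, at -1.50, ranked 6 among them by the size of its fall, and 15 of the 27 fell by more than 1 on the log2 scale. The SD across the 27 genes was 0.51, and Per3 lay within 1 SD of their median. For the 129S5 allele 22 interval genes were listed, and Per3 ranked 17 by its fall. In that table the Df/+Bl6 mean of interval genes had a median of 0.486% of the control mean and reached up to 3.96%, which leaves the 0.994% of Per3 inside the range. For the C57BL/6J allele 12 interval genes were listed, all 12 lower with a median difference of -0.85, and Per3 was not among them.

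Of the 2 nearest tested genes on each side of Per3, 3 of 4 were also lower. Park7, which encodes a protein of the oxidative stress response, had a combined difference of -1.33, with means of 4043 in Df/+Bl6 and 10153 in +129/+Bl6. Errfi1, an inhibitor of the EGF receptor and the next gene on that side, had a Df/+Bl6 mean at 49.8% of its control mean. On the other side Vamp3, a vesicle fusion protein, had a difference of -0.99, and Camta1 was tested but not listed. Park7 and Vamp3 were listed for the C57BL/6J allele too, with differences of -1.19 and -0.61, whereas Per3 and Errfi1 were not.

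The genes with values most like those of Per3 were named by a fixed measure, which favours genes of the deletion because it includes the 129S5 allele. Likeness was the Euclidean distance over the log2 differences of the combined and 129S5 tables, among 218 other genes listed in both with a mean above 0. The closest was Gpr153 at a distance of 0.176, followed by Plekhg5 at 0.218 and Errfi1 at 0.493. The 129S5 part of this distance rests on low Df/+Bl6 means, 0.690 for Per3, 8.90 for Gpr153, 1.19 for Plekhg5 and 1.52 for Errfi1. With a pseudocount of 1 the 129S5 difference of Per3 became -5.38, and with 10 it became -2.89. The distances were computed without a pseudocount only, so this order may not hold with one. Gpr153 had differences of -1.37 in the combined table and -6.78 for the 129S5 allele. Gpr153 and Plekhg5 were also listed for the C57BL/6J allele, with differences of -0.92 and -1.50, whereas Per3 and Errfi1 were not.

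**Figure D2:**
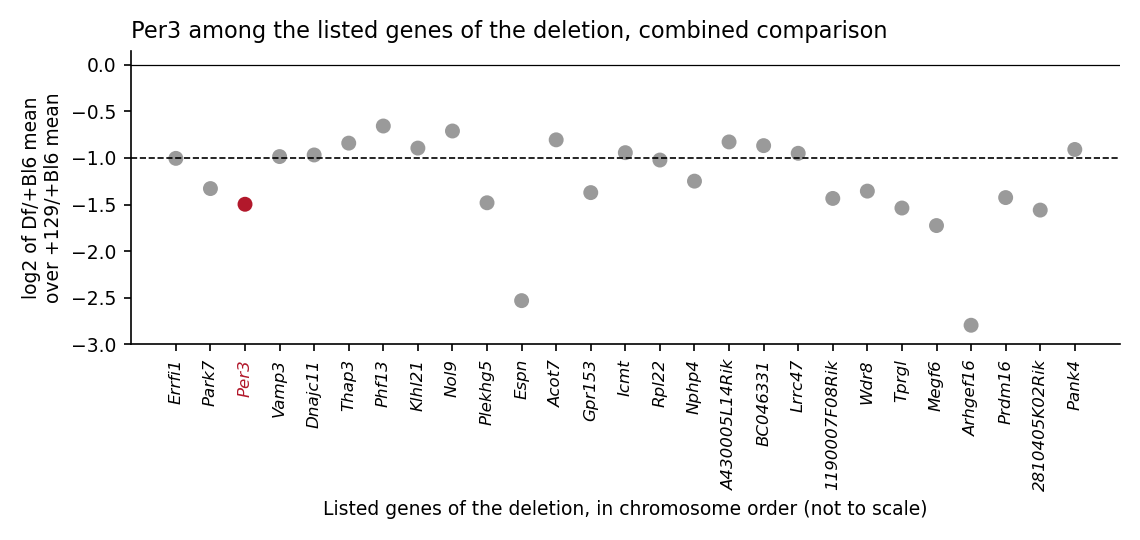
The log2 ratio of the Df/+Bl6 mean over the +129/+Bl6 mean in the combined table, for the 27 listed genes of the deletion in chromosome order (not to scale). The dashed line at -1 is the ratio given by the loss of 1 of 2 equal copies, all 27 points lie under 0, and Per3 (red) lies at -1.50.

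Promoter sequences of the listed clock genes are shown because E-boxes and D-boxes are the elements through which the clock drives these genes. The RefSeq promoter table used here (GRCm38.p6) held 9 of the 10 genes, without Per2. The 250 bases before each transcript start in that table were searched on both strands for the E-box CACGTG, the D-box TTATGNAA, the cAMP response element TGACGTCA and the core AGGTCA of the sites of RORs and REV-ERBs. Among 32851 promoters of this length, 6.02% held the E-box, 3.07% the D-box, 1.55% the cAMP response element and 14.0% the AGGTCA core. The Per3 promoter, at chr4:151044666-151044915 on the minus strand, held 2 D-boxes, which span bases 205 to 198 and 158 to 151 before the start. The Per1 promoter at chr11:69098699-69098948, on the plus strand, held an E-box at bases 166 to 161, the complement of AGGTCA at bases 137 to 132, and a D-box at bases 24 to 17. These matches do not overlap. The Dbp window, at chr7:45704997-45705246 on the plus strand, held none of the 4 motifs. The starts in the table can lie inside the whole span of a gene, which covers all its transcripts, and the bases before the outermost start were then not all searched. Of the 250 bases, 42 lay inside the span given above for Per3, 147 for Dbp and all 250 for Per1. The sequences are given 5′ to 3′ on the strand of the gene, with motif matches in capitals.
Per3: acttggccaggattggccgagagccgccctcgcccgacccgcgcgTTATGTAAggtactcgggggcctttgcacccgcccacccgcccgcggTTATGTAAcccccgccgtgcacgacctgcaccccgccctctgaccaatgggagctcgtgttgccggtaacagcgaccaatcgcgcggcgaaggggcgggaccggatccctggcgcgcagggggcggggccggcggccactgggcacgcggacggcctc
Per1: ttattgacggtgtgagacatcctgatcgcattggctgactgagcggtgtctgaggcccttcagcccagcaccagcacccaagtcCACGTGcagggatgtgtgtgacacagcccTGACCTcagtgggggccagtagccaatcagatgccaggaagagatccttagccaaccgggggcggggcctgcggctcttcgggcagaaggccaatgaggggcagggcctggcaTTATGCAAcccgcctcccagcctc
Dbp: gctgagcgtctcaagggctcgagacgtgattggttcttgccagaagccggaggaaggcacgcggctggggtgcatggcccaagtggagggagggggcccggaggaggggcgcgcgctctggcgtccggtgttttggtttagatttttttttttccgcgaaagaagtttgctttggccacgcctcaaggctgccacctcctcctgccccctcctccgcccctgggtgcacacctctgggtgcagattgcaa

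A further Per1 promoter, at chr11:69099902-69100151, held none of the 4 motifs. Of the clock genes that were not listed, Cry1 had an E-box, Nr1d2 an AGGTCA core and Clock an AGGTCA core in 1 of its 3 promoters, and the windows of Cry2, Arntl and Nr1d1 held none. A match is a description of the letters in the window and not evidence that a factor binds there.

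Of 11 other clock transcription factors and repressors, all tested, 1 was listed (9.09%), a share near the 8.67% of all tested genes. This was Bhlhe40, which encodes the E-box repressor DEC1, with means of 11655 in Df/+Bl6 and 18941 in +129/+Bl6 and a difference of -0.70. The D-box factors Tef, Hlf and Nfil3 and the ROR genes were not listed. Of 33 enzymes and partners of PER and CRY proteins, such as casein kinases and F-box proteins, 0 were lower and 2 were higher, against 5.13% of all tested genes that were higher. These were Timeless, with a difference of 0.78, and Tipin, with 0.82, whose products form a complex that acts at DNA replication forks.

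Among 24 tested clock output genes 2 were listed in the combined table (8.33%), a share near the 8.67% of all tested genes, and both were lower. Klf15, a Krüppel-like factor that is also induced by glucocorticoids, had means of 81.7 in Df/+Bl6 and 223 in +129/+Bl6, a difference of -1.45. Cdkn1a, which encodes the cell cycle inhibitor p21, had means of 10462 and 16690.2 and a difference of -0.67. Tspo, a mitochondrial outer membrane protein, was listed for the 129S5 allele alone, with a difference of -0.60.

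Genes that respond to the signals that also induce Per1 were examined next. Of 24 tested immediate-early, cAMP and serum response genes, 1 was listed (4.17%) and lower, against 3.54% of all tested genes that were lower. This was Atf3, a stress-induced factor of the ATF family, with a difference of -1.15. Fos, Egr1 and the Nr4a genes were not listed. Of 11 tested glucocorticoid response genes 5 were listed (45.5%) and all 5 were lower, against the same 3.54%, with a median difference of -0.99. They include Per1 itself and Errfi1, which lies in the deletion. The other 3 were the metallothioneins Mt1 (-1.02) and Mt2 (-0.99), which bind metals, and Cebpd (-0.78), a C/EBP transcription factor. Mt1 and Mt2 are similar genes, and reads with a single best location were counted. The glucocorticoid receptor gene Nr3c1 and its target Fkbp5 were not listed.

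**Figure D3:**
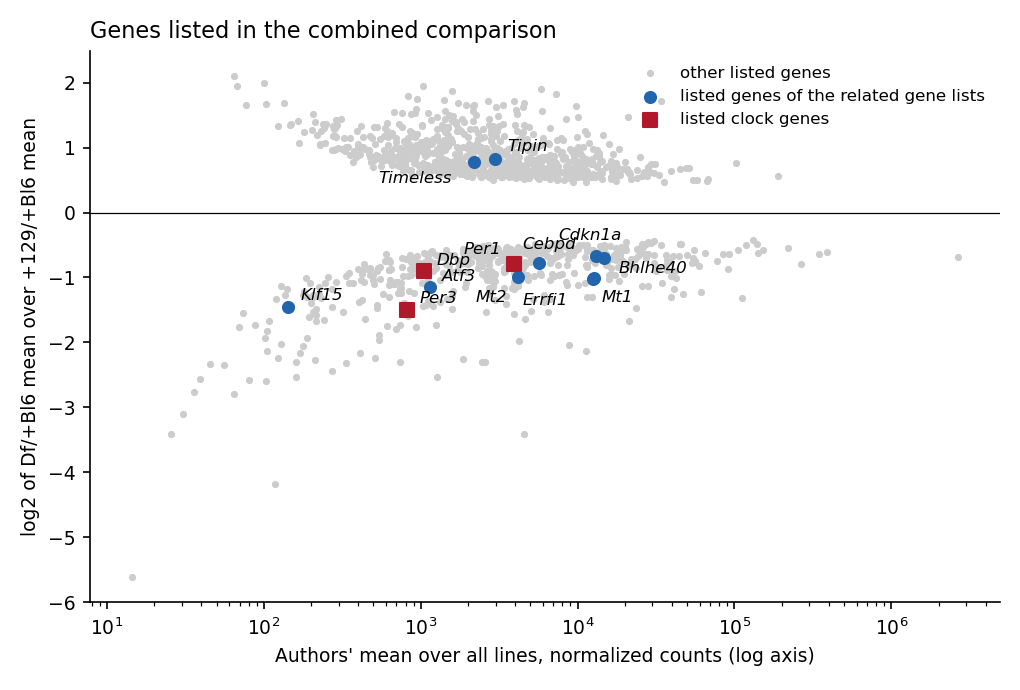
The log2 ratio of the Df/+Bl6 mean over the +129/+Bl6 mean against the authors' mean over all lines (log axis), for the 1346 genes listed in the combined table. Per3, Per1 and Dbp (squares) and the listed genes of the related lists (dark circles) lie under 0 except Timeless and Tipin, and the gap around 0 arises because unlisted genes have no value.

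Markers of cell growth and of other cell types were read beside these genes. All 10 proliferation markers, all of them tested, were listed and higher in Df/+Bl6 MEFs, against 5.13% of all tested genes that were listed and higher, with a median difference of 1.06 and a range from 0.67 for Pcna to 1.91 for Cenpf. Their summed means were 171902 normalized counts in Df/+Bl6 and 72993 in +129/+Bl6, and Mki67 was the most abundant in Df/+Bl6, with 48354 against 14644. When reads were split by allele, the table of 129S5 reads listed 6 of them and that of C57BL/6J reads 5, all higher. Per3, Per1 and Dbp thus had lower means in the genotype in which the means of proliferation markers were higher, and the part of this in their differences was not tested.

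Of the 3 neural or neural crest markers reported here, which are not the whole list, 2 were lower, Ngfr (-1.59) and Sox10 (-1.53), against 3.54% of all tested genes that were listed and lower. Ngfr was the more abundant of these, and neither was at 0. Tubb3 was not listed. In RNA from whole cultures, fewer cells of a type and less RNA per cell cannot be told apart, and the part of these markers in the clock gene differences was not tested. Of 11 fibroblast markers, all tested, fibronectin (Fn1) was listed with a difference of -0.69, and the other 10 were not, so that the share listed (9.09%) was near the 8.67% of all tested genes. None of the 9 muscle, 6 macrophage, 5 endothelial and 3 tested epithelial markers was listed, but these lists are short. Genes outside them, chosen after their values were seen, were listed and lower. Examples typical of epithelial or endothelial cells were the desmosome gene Dsp (-1.09), the epithelial integrin Itgb4 (-1.80) and Eng (-0.85). Others, typical of muscle or mesothelium, were Myom1 (-1.15), Mylk2 (-1.18) and Msln (-2.03). Higher genes of such cells were not counted, and the part of these genes in the clock gene differences was not tested. Fn1 had means of 2121646.5 normalized counts in Df/+Bl6 and 3418220.3 in +129/+Bl6. Levels of unlisted markers are not known here, and markers of other cell types were tested as well, so the fibroblast label could not be checked further.

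**Figure D4:**
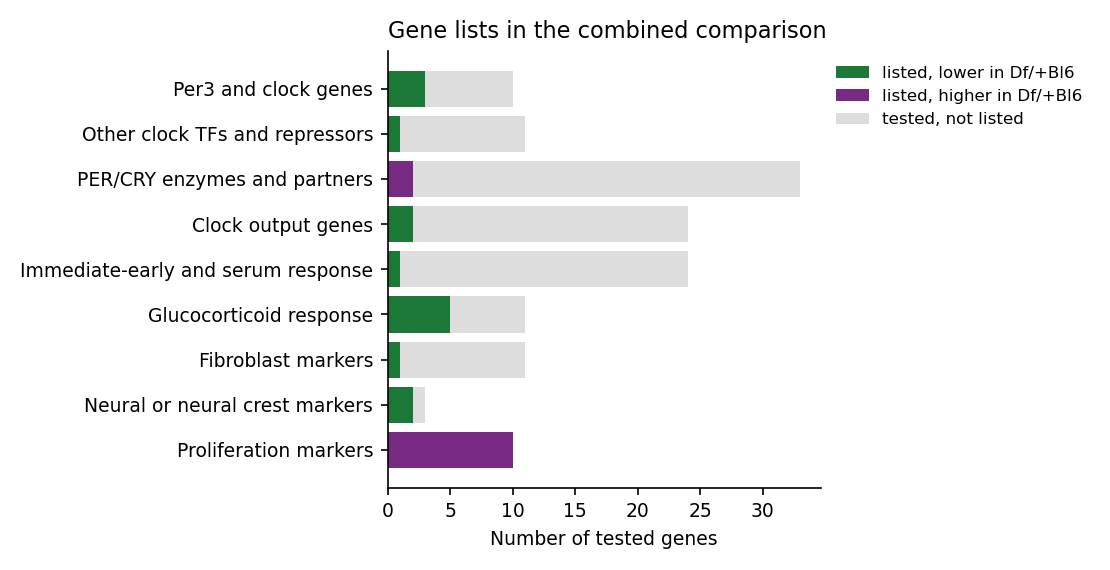
Number of tested genes of each list that were listed in the combined table and lower in Df/+Bl6, listed and higher, or not listed. The clock genes have 3 lower of 10, the glucocorticoid response genes 5 lower of 11 and the proliferation markers 10 higher of 10. The lower glucocorticoid response genes include Per1, which is also a clock gene here, and Errfi1, which lies in the deletion.

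The combined values depend on the scale of the table. Of its 1346 genes 59.1% were higher in Df/+Bl6, and recentring on the median of the 1319 genes outside the deletion, a shift of 0.62 on the log2 scale, left 49.0% higher (659 higher and 686 lower). A split near equal follows from centring on the median of listed genes and says nothing of the true scale. On that scale Per3 was at -2.11, Per1 at -1.42 and Dbp at -1.51, while Timeless (0.16) and Tipin (0.21) stayed above 0, as did all 10 proliferation markers.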

How the data were processed

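Stranded paired-end libraries were made from polyadenylated RNA of 4 Df/+Bl6 and 3 +129/+Bl6 lines. According to the methods of the study, GSNAP, allowing no mismatch, placed the reads on transcriptomes of C57BL/6J (GRCm38/mm10) and of 129S5SvEvBrd, each gene being represented by its longest transcript. A pair was counted where its position was unique and the mates hit 1 gene, and genes with few reads on each allele were left out. The deposited signal values are mean normalized counts per genotype, scaled by the authors with DESeq size factors. The 3 deposited tables (combined, 129S5 allele and C57BL/6J allele) hold genes past an FDR of 0.05. Their fold change, p-value and adjusted p-value columns hold the authors' comparison and were not used. The column of Df/+Bl6 means was identified because the overall mean of each gene is the average of the columns weighted 4 to 3.

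A further file holds normalized counts in 9 columns without names. No column could be matched to a line by name, and none was used except for the identifiers, which gave the 15531 tested genes. The planned fit with limma was therefore not run, and genes count as called where a deposited table lists them. The number of genes tested per allele was not used here, so no share listed is given for the allelic tables. The depth per line is unknown.

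Log2 ratios of the means were computed here and checked on simulated data. Symbols came from GENCODE, which matched 14963 of the tested identifiers, and 4 list genes were matched through older symbols in RefSeq. GENCODE of NCBI37/mm9 gave gene order and transcript length only. Of the lists, Avp, Prok2, Gys2, Zbtb16, Epcam and Icer, a product of Crem, had no tested entry, and 2 markers of the neural list are not reported here. The named genes are the 10 clock genes, the listed genes of the gene and marker lists (of the proliferation markers, the ends of the range and the most abundant), the 2 nearest tested genes on each side of Per3 and the 3 genes most like it. Unlisted genes, the ends of ranges and the genes typical of other cell types outside the lists were named after their values were seen. The clock genes and lists were chosen with earlier results of these data known. Alternatives were pseudocounts of 1 and 10, recentring, a mean of at least 100, fold limits and other gene sets. Python 3.11.15, numpy 2.4.6, pandas 2.3.3 and matplotlib 3.10.9 were used.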

Additional observations from a re-analysis of the deposited data

How the results depend on the processing

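Of the alternatives run, none could turn the direction of Per3, Per1 or Dbp, since a pseudocount keeps the sign of a ratio and recentring lowered all values, so their direction was not put to a test. A pseudocount of 1 moved the combined differences of Per3, Per1 and Dbp by less than 0.005, Per3 to -1.49, and moved the 129S5 allele of Per3 to -5.38 and the C57BL/6J allele of Dbp to -0.91. With a pseudocount of 10 the values were -1.48 for Per3 and -0.89 for Dbp in the combined table, -2.89 for the 129S5 allele of Per3 and -0.87 for the C57BL/6J allele of Dbp. Adding a constant shrinks ratios of low means by construction. Recentring on the median of the listed genes outside the deletion gave -2.11 for Per3, -1.42 for Per1 and -1.51 for Dbp in the combined table, -7.38 for the 129S5 allele of Per3 and -1.62 for the C57BL/6J allele of Dbp. That median is taken over listed genes and not over all genes. The number of clock genes lower, 3, became 1 at a fall of at least 2-fold. It was 3 at 1.5-fold and with a mean of at least 100 normalized counts, 2 when listing in an allelic table was also required or Per3 was left out, and 4 with the other clock transcription factors and repressors added. Leaving out each line was not run, because no column of values could be matched to a line by name, so the weight of a single line in these means is unknown. No paired analysis was possible because the labels give no litter, batch or pairing of the lines.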
